A study of Rattus norvegicus with 48 samples.

Results

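The proteasome is the protease that degrades most short-lived and damaged proteins of a cell, and its subunit genes are described here across 5 groups of rat liver samples. Members were chosen by gene symbol in the array's probe annotation, taking every symbol of the families Psma, Psmb, Psmc, Psmd, Psme and Psmf with a number, without the interferon-inducible Psmb8, Psmb9 and Psmb10. This gave 38 of 13337 named genes on the array, each read by 1 probe. Of these, 16 encode subunits of the core particle (Psma and Psmb genes) and 21 encode subunits, assembly factors or activators of the regulatory particles (Psmc, Psmd and Psme genes). The remaining name match, Psmc3ip, encodes a meiotic recombination factor and not a subunit, and is counted among the members only because the name matches. A gene was tested when its probe was above background (detection p under 0.05) on at least 8 of the 48 arrays, which 36 members were. Psma8, a testis subunit, was above background on 2 arrays and Psmb11, a thymus subunit, on 6, and neither was tested. No probe under the symbols Psmd10, Psmd14, Psme3 or Psmf1 was used here.

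RNA was measured on 1-colour Illumina bead arrays, on which a probe's brightness (intensity) rises with the amount of its transcript. The samples were liver tissue from male Fischer rats: KRT-19-positive preneoplastic nodules without hormone (n = 10), KRT-19-positive nodules after 2 d of T3 (n = 10) or 4 d of T3 (n = 10), KRT-19-negative preneoplastic nodules (n = 10) and control liver (n = 8). T3 is triiodothyronine, the active thyroid hormone, KRT-19 (cytokeratin 19) marks bile duct epithelium and liver progenitors, and a preneoplastic nodule is a focal hepatocyte lesion that can precede liver cancer. The dose of T3 and the way the nodules arose are not stated in the labels. Nor do they state that each sample is a different animal: the p-values rest on the spread among these samples alone, and that spread may be technical.

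The core particle is a barrel of stacked rings. Alpha subunits (Psma genes) form its gate, and beta subunits (Psmb genes) form the chamber in which Psmb5, Psmb6 and Psmb7 carry the chymotrypsin-like, caspase-like and trypsin-like cutting sites. The regulatory particle caps the barrel: a ring of ATPases (Psmc genes) unfolds the substrate, scaffold subunits and ubiquitin receptors of the base hold it, and a lid (other Psmd genes) removes ubiquitin. Psmd5 and Psmd9 are not part of the finished particle but help to assemble its base. Psme1 and Psme2 together form PA28, an interferon-inducible activator that opens the core without ubiquitin or ATP, and Psme4 encodes the activator PA200. Cells replace Psmb6, Psmb7 and Psmb5 by Psmb9, Psmb10 and Psmb8 in the immunoproteasome, which cuts peptides for antigen presentation. In mouse and human cells the transcription factors NRF1 (Nfe2l1) and NRF2 (Nfe2l2) raise many proteasome genes through antioxidant response elements in their promoters.

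Promoter sequence is shown for Psmb5 and Psme4 because they are a core and an activator gene that differed between groups below and whose promoters hold the letters of such an element. RefSeq promoters of the rat build GRCr8 (250 bases before and 50 bases after the start given for a gene) matched 34 of the 38 members. The motif searched was TGACNNNGC on either strand. It occurred in 8 of 34 members (23.5%), in 4 of 14 core promoters (28.6%) and in 4 of 19 regulatory promoters (21.1%), against 4038 of all 33469 promoters of the same length (12.1%). The 8 genes were Psma3, Psmb2, Psmb5, Psmb6, Psmd1, Psmd3, Psmd9 and Psme4. These are matches of letters and were not tested as binding sites. The 250 bases before the start read 5′ to 3′ on the gene's strand as follows, with the motif in capitals. The Psmb5 promoter is chr15:32047380-32047629 on the minus strand with the motif on the gene's strand, and the Psme4 promoter is chr14:108706393-108706642 on the plus strand with the motif on the opposite strand.
Psmb5: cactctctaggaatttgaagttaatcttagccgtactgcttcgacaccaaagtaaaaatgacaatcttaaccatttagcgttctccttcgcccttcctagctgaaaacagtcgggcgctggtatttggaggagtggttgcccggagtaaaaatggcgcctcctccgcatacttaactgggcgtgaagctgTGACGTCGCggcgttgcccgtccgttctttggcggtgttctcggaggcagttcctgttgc
Psme4: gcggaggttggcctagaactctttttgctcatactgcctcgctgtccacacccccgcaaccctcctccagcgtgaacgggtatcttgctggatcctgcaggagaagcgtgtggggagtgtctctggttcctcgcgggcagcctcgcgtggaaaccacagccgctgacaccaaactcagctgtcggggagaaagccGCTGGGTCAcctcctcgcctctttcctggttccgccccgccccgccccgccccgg

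Across arrays, 8380 to 10695 of 22523 probes were above background, and the median raw intensity was 93 to 198.5. KRT-19-positive arrays without T3 had more such probes (median 10490) than those after 2 d (9540) and 4 d (9789), KRT-19-negative (9298) and control arrays (9218). The hepatocyte markers Alb, Ttr, Fgb, Serpina1 and Tf were above background on all 48 arrays, so the tissue label was met. Markers of other cells were mixed. The B cell marker Ms4a1 and the endothelial marker Cdh5 were above background on 0 arrays. The B cell marker Cd79b was above it on 29 arrays, and the endothelial markers Lyve1 and Tek on 48 and 32. Mean log2 Krt19 was 11.82, 10.25 and 8.03 in KRT-19-positive nodules without T3 and after 2 d and 4 d, 8.37 in KRT-19-negative nodules and 6.51 in control liver. The 4 d arrays differed in the preneoplastic marker Gstp1, which was 14.35 to 15.27 without T3. It was 14.5 and 14.12 in 4 d arrays 1 and 3, 12.95 and 13.2 in 4 d arrays 8 and 9 and 9.36 to 10.56 in the others. Arrays 1 and 3 also correlated least with the 4 d group (0.43 and 0.52), but still more than with any other group. Of the 48 arrays, 3 stood apart. KRT-19-negative array 9 correlated with the mean of the KRT-19-positive group at 0.54 and with that of its own group at 0.13. KRT-19-negative array 3 correlated with control at 0.58 and with its own group at 0.52, and 2 d T3 array 2 correlated with its own group at 0.38, against 0.59 to 0.80 for the other 9 arrays. Counts without these 3 arrays are given beside the counts below. In some groups arrays with earlier title numbers (1 to 5, in control 1 to 4) differed from later ones, and the values of a described member within each set are given where they differed by at least 0.3 and a call was lost in one set.

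Levels are log2 intensities after background correction and quantile normalisation, and differences between 2 groups are log2 differences ± SE of a limma fit over all 48 arrays and 11558 features. A difference was called at a Benjamini-Hochberg adjusted p under 0.05. Quantile normalisation gives every array the same overall distribution. With scaling on 1 value per array in its place, the median of all features itself moved by between -0.37 and 0.31 in a comparison, so the absolute direction of small differences is not fixed by these data. Such scaling was done on the median of all probes or of probes detected on every array. Taken relative to the median of all features, both give the same values, because they differ only by 1 value per array. In this single check the called members kept their direction in every comparison, except Psmc1 between 4 d and 2 d of T3. In bulk tissue, fewer cells of a type and less RNA per cell cannot be told apart.

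As classes, core and regulatory subunits moved little next to single members. For each array the median difference of the members from the control mean was taken. For the 14 core subunits tested it averaged 0.08 ± 0.07 (SD, n = 10) in KRT-19-positive nodules without T3, 0.23 ± 0.02 (SD, n = 10) after 2 d and 0.29 ± 0.07 (SD, n = 10) after 4 d of T3. In KRT-19-negative nodules it averaged 0.04 ± 0.08 (SD, n = 10), and in control liver 0 ± 0.07 (SD, n = 8). After quantile normalisation the 4 d arrays lay between 0.18 and 0.37 and the 2 d arrays between 0.19 and 0.27. Both lay above all control arrays (-0.15 to 0.09). For the 21 regulatory members the same measure averaged 0.01 ± 0.05, 0.15 ± 0.08 and 0.12 ± 0.07 in KRT-19-positive nodules without T3 and after 2 d and 4 d (SD, n = 10 each), while KRT-19-negative nodules averaged 0.03 ± 0.09 (SD, n = 10) and control liver 0 ± 0.09 (SD, n = 8). The core median exceeded the regulatory one by 0.17 ± 0.10 after 4 d, by 0.07 in the other KRT-19-positive groups and by 0 in KRT-19-negative nodules and control liver. These class values are after quantile normalisation and are a description without a test. Under scaling on 1 value per array, the core median relative to all features was 0.01 in KRT-19-positive nodules against control. It was 0.05 at 2 d against no T3 and 0.24 at 4 d against control. The regulatory medians were 0.02, -0.05 and 0.07 in the same order. The members also had a lower median SD within a group than all features. It was 0.16, 0.16 and 0.13 in KRT-19-positive nodules without T3, after 2 d and after 4 d, against 0.25, 0.27 and 0.26. It was 0.17 against 0.33 in KRT-19-negative nodules and 0.23 against 0.33 in control liver. Members and all features were not matched for intensity. Of the tested members, 13 of 14 core and 19 of 21 regulatory ones were above background on every array. A feature needed this on only 8 arrays. Whether the lower SD goes with brighter probes was not tested.

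**Figure D1:**
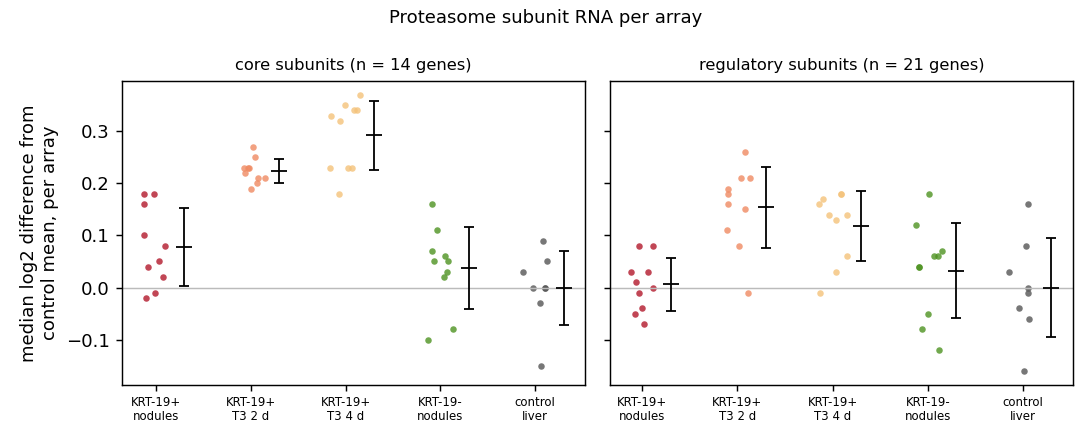
Median log2 difference of the 14 core (left) and 21 regulatory (right) members from the control mean, 1 point per array, with group mean and SD as bars. Values are after quantile normalisation, and the class differences depend on the scaling. Core values of the 2 d and 4 d T3 arrays lie at 0.18 or above, and all control arrays lie at 0.09 or below, while the regulatory values of the groups overlap.

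**Figure D2:**
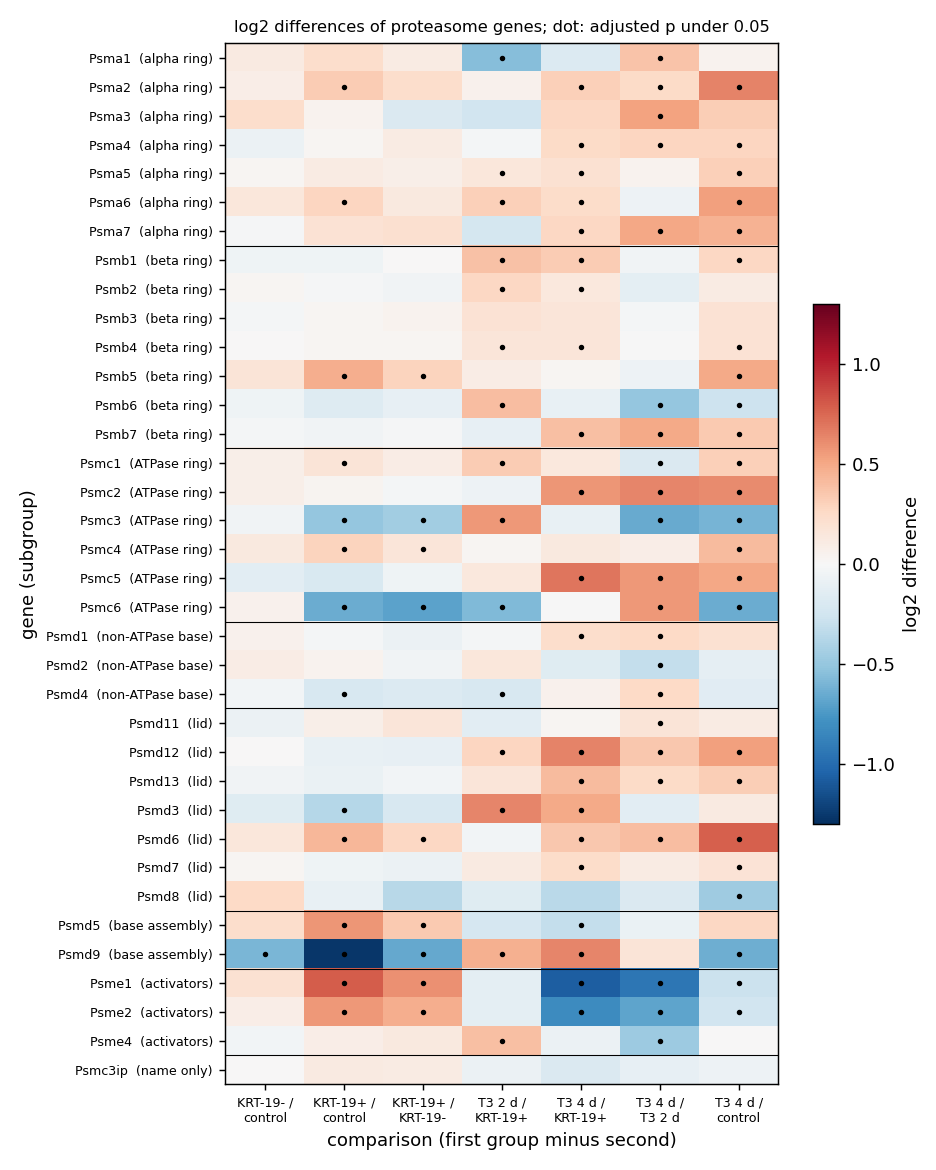
Heat map of log2 differences (first group minus second) of the 36 tested members, in rows grouped by subunit role, for the 7 comparisons in columns, where a dot marks an adjusted p under 0.05. Psme1 and Psme2 are higher in KRT-19-positive nodules (0.79 and 0.56 against control) and lower after 4 d of T3 (-1.07 and -0.82 against no T3), and Psmd9 is lower in nodules.

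KRT-19-negative nodules were first compared with control. Of the 36 members, 0 were higher and 1 was lower, against 21.9% of all features called in either direction. At an unadjusted p under 0.05 there were 4 members, Psma6, Psmb5, Psmc4 and Psmd9. The share of all features at that unadjusted threshold was not taken, so no excess of members can be read from this count. Psmd9, the base assembly factor, ranged from 9.12 to 10.61 (median 9.84) in KRT-19-negative nodules, against 10.06 to 10.68 (median 10.24) in control liver. The groups overlapped through 1 nodule array, array 3, which is among those that stood apart, and the difference was -0.59 ± 0.13 (adjusted p = 0.000515). It was called among the earlier (-0.77) and the later title numbers (-0.40). The count was 2 without the 3 arrays that stood apart, when Psmb5 joined at 0.20 (adjusted p = 0.0489). Median differences were 0.01 for core and 0.06 for regulatory members, with -0.01 for all features, and no member's arrays were separate (2.17% of all features were).

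The KRT-19-positive nodules were next compared with control liver and with KRT-19-negative nodules, and both comparisons share the KRT-19-positive arrays. The PA28 genes Psme1 and Psme2 and the catalytic subunit Psmb5 were called higher in KRT-19-positive nodules than in either other group, and so, less firmly against KRT-19-negative nodules, were the lid subunit Psmd6 and the assembly factor Psmd5. Psmd9 and the ATPases Psmc3 and Psmc6 were called lower than in either, but under median scaling Psmc3 turned to 0.04 against control and 0.01 against KRT-19-negative nodules. Against control, 9 members were higher and 5 lower of 36, with 48.7% of all features called. Against KRT-19-negative nodules, 6 were higher and 3 lower, with 32.0% of all features called. The split of these calls rested on the scaling: against control it was 10 higher and 1 lower under median scaling and 3 higher and 19 lower under scaling on probes detected on every array. Against KRT-19-negative nodules it was 9 higher and 0 lower, and 3 higher and 13 lower. Without the 3 arrays that stood apart the counts were 15 and 9. The share of members called was below that of all features in both. Among core members 3 were higher and 0 lower against control (median 0.04), and among regulatory members 6 were higher and 5 lower (median -0.03, all features -0.03). Against KRT-19-negative nodules the arrays of 0 members were separate, with 2.85% of all features.

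Of the catalytic subunits, Psmb5 ranged from 12.09 to 12.51 (median 12.26) in KRT-19-positive nodules, 11.77 to 12.21 (median 12.00) in KRT-19-negative nodules and 11.52 to 12.10 (median 11.88) in control liver. The lowest KRT-19-positive value lay just under the highest control value, and every KRT-19-positive array was above the control mean. The difference was 0.47 ± 0.07 against control (adjusted p = 2.13e-07) and 0.29 ± 0.07 against KRT-19-negative nodules (adjusted p = 0.000476). Under scaling on probes detected on every array both calls were lost, at 0.12 (adjusted p = 0.221) and 0.08 (adjusted p = 0.425). The other catalytic subunits were not called: Psmb6 differed from control by -0.17 ± 0.10 (adjusted p = 0.155) and Psmb7 by -0.05 ± 0.07 (adjusted p = 0.602). In the alpha ring, Psma6 was 0.28 ± 0.07 higher than control (adjusted p = 0.000491), and its arrays did not overlap those of control, as for 3 of the 36 members in all and 15.9% of all features. Psma2 was 0.33 higher, with 0.48 among the earlier and 0.17 (adjusted p = 0.307) among the later title numbers, and without control array 3 the value was 0.20 (adjusted p = 0.0817).

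In the ATPase ring the members went both ways, with 2 higher and 2 lower than control, against 24.8% and 23.9% of all features. Psmc3 ranged from 8.83 to 9.62 (median 9.16) in KRT-19-positive nodules, against 9.42 to 9.85 (median 9.68) in KRT-19-negative nodules and 9.30 to 9.93 (median 9.78) in control liver. Of the KRT-19-positive arrays, 7 lay below all arrays of both other groups. The difference was -0.45 ± 0.09 from KRT-19-negative nodules (adjusted p = 0.000116) and -0.50 ± 0.10 from control (adjusted p = 3e-05). Neither was called under median scaling, where both were slightly above 0 (0.01 and 0.04). Psmc6 lay near background, above it on 44 of 48 arrays, and differed from control by -0.64 ± 0.21 (adjusted p = 0.00968), with -0.29 (adjusted p = 0.439) among the earlier and -0.99 among the later title numbers. From KRT-19-negative nodules it differed by -0.70 ± 0.20 (adjusted p = 0.00445), with -0.94 among the earlier and -0.46 (adjusted p = 0.167) among the later. Both Psmc6 calls were also lost under median scaling (-0.17 against control and -0.27) and when the count of detected probes entered as a covariate (-0.47 and -0.57). Psmc4 was 0.29 ± 0.06 higher than control (adjusted p = 7.32e-05), whereas against KRT-19-negative nodules its call was lost without KRT-19-negative array 5 (0.13, adjusted p = 0.0672). Psmc1 was 0.17 higher than control, and this call was lost without control array 7 or 8 (0.14 each, adjusted p = 0.0724 and 0.0833). Among the earlier title numbers its difference was -0.01 and among the later 0.36.

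In the lid, Psmd6 was 0.43 ± 0.09 higher than control (adjusted p = 4.93e-05) and 0.27 ± 0.08 higher than KRT-19-negative nodules (adjusted p = 0.00736). Against control its call was lost under scaling on probes detected on every array (0.15, adjusted p = 0.117). Against KRT-19-negative nodules it was lost there too (0.11, adjusted p = 0.285), among the later title numbers (0.20, adjusted p = 0.148) and with the covariate (0.12, adjusted p = 0.345). Psmd3, another lid subunit, was 0.37 ± 0.09 lower than control (difference -0.37, adjusted p = 0.000748). That difference was -0.77 among the earlier and 0.03 among the later title numbers, and -0.16 (adjusted p = 0.202) with the covariate. The ubiquitin receptor Psmd4 was called lower than control (-0.21), and the call was lost without KRT-19-positive array 7 or 9 or control array 2, 5 or 6, with a weakest value of -0.15 (adjusted p = 0.13). It was -0.04 (adjusted p = 0.855) among the earlier and -0.39 among the later title numbers.

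The base assembly factors went in opposite directions. Psmd9 ranged from 8.64 to 9.46 (median 9.13) in KRT-19-positive nodules, 9.12 to 10.61 (median 9.84) in KRT-19-negative nodules and 10.06 to 10.68 (median 10.24) in control liver. No KRT-19-positive array reached the control range, and the difference of -1.26 ± 0.13 (adjusted p = 8.33e-12) was 2.39-fold. Against KRT-19-negative nodules it was -0.67 ± 0.12 (adjusted p = 1.73e-05), and under median scaling -0.21 (adjusted p = 0.368). Psmd5 ranged from 8.76 to 9.32 (median 9.09) in KRT-19-positive nodules and 7.80 to 8.99 (median 8.56) in control liver. It was 0.57 ± 0.12 higher than control (adjusted p = 4.49e-05) and 0.34 ± 0.11 higher than KRT-19-negative nodules (adjusted p = 0.013). The call against KRT-19-negative nodules was lost among the earlier and the later title numbers (0.34 each, adjusted p = 0.128 and 0.0573) and with the covariate (0.28, adjusted p = 0.0985).

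**Figure D3:**
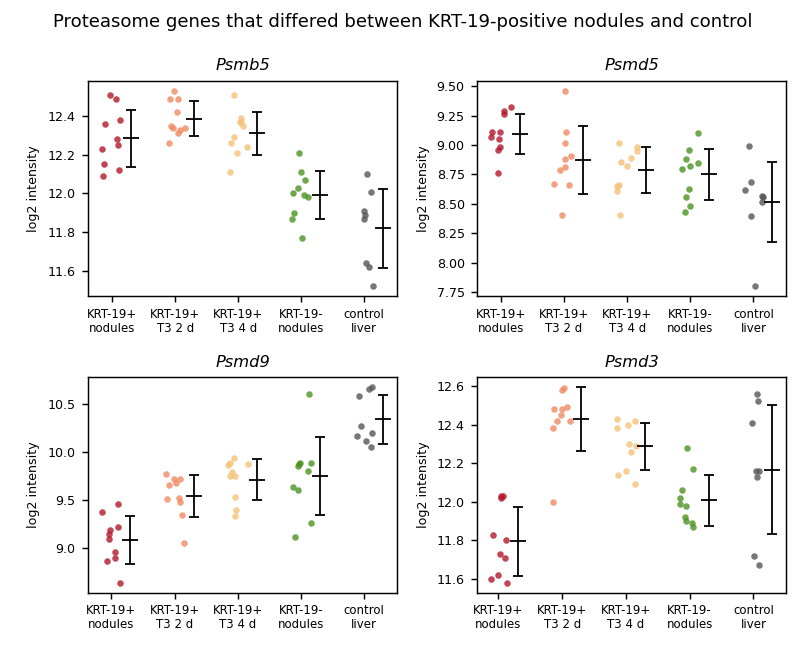
Log2 intensity of Psmb5, Psmd5, Psmd9 and Psmd3 per array in the 5 groups, with mean and SD as bars. Relative to control liver (last column), KRT-19-positive nodules (first column) lie higher for Psmb5 and Psmd5 and lower for Psmd9 and Psmd3, and for Psmd9 these groups do not overlap.

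Both PA28 subunits were higher in KRT-19-positive nodules. Psme1 ranged from 13.67 to 14.09 (median 13.83) in KRT-19-positive nodules, 13.02 to 13.67 (median 13.22) in KRT-19-negative nodules and 12.64 to 13.52 (median 13.05) in control liver. Every KRT-19-positive array lay above every control array. The differences were 0.79 ± 0.10 against control (1.73-fold, adjusted p = 3.17e-09) and 0.59 ± 0.09 against KRT-19-negative nodules (adjusted p = 2.17e-06). Psme2 ranged from 10.31 to 10.74 (median 10.50) in KRT-19-positive nodules, 9.80 to 10.57 (median 10.00) in KRT-19-negative nodules and 9.52 to 10.60 (median 9.97) in control liver. The Psme2 ranges overlapped, with differences of 0.56 ± 0.10 (adjusted p = 5.66e-06) and 0.47 ± 0.10 (adjusted p = 8.51e-05), and against control the value was 0.86 among the earlier and 0.27 (adjusted p = 0.0861) among the later title numbers. The PA200 gene Psme4 was not called, at 0.09 ± 0.08 against control (adjusted p = 0.392). Some markers of other cells also differed. Against KRT-19-negative nodules 5 of 7 macrophage markers were higher and 1 lower, and 4 of 8 lymphocyte markers were higher and 0 lower, with 17.3% and 14.7% of all features. The summed linear intensity of the macrophage markers was 7501 to 16106 (median 11093) in KRT-19-positive nodules, 5438 to 10380 (median 7426) in KRT-19-negative nodules and 8012 to 15042 (median 8798) in control liver. Against control 3 macrophage markers were higher and 3 lower, and 2 lymphocyte markers were higher and 1 lower. Of the stellate and fibroblast markers 5 of 6 were higher and 1 lower, and of the cholangiocyte markers 4 of 5 were higher and 0 lower. Of all features, 24.8% were higher and 23.9% lower than control. Their part in the PA28 levels was not tested.

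The inducible catalytic subunits did not all follow PA28 in the nodules. Psmb10 of KRT-19-positive nodules was 0.59 ± 0.12 higher than that of control (adjusted p = 3.66e-05). Psmb9 differed from control by 0.28 ± 0.18 (adjusted p = 0.194), with 10.27 to 11.04 in KRT-19-positive nodules and 9.59 to 11.63 in control liver. Psmb8 was called lower than control at -0.23 ± 0.09, but the call was lost within the earlier and the later title numbers alone (-0.22 and -0.23) and without KRT-19-positive array 6 or control array 4, 6 or 8 (-0.20 each, highest adjusted p = 0.0554). Against KRT-19-negative nodules Psmb9 was called at 0.48, with 0.96 among the earlier and 0 among the later title numbers, and the call was lost without KRT-19-positive array 1 (0.43) or KRT-19-negative array 4 (0.37). Of 15 listed antigen presentation genes 11 were measured, of which 7 were higher and 1, the other transporter subunit Tap1 (-0.65), was lower than control, with 24.8% and 23.9% of all features. The peptide-loading factor Tapbp (1.03) and the peptide transporter subunit Tap2 (0.51) were among the higher ones.

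The next comparisons asked how KRT-19-positive nodules differed after T3, and the 2 d and 4 d groups were each set against KRT-19-positive nodules without T3 and against each other. The comparisons share arrays. After quantile normalisation, the lid subunits Psmd3 and Psmd12, the ATPases Psmc3 and Psmc1, PA200 (Psme4) and several beta subunits were called higher at 2 d than without T3. At 4 d the ATPases Psmc5 and Psmc2, 5 of 7 lid subunits, Psmb7 and most alpha subunits were called higher, and PA28 lower. The lower PA28 level at 4 d was called under every scaling, whereas the higher calls were not. Psmc3, Psmb6 and Psme4 were lower at 4 d than at 2 d. At 2 d, 12 members were higher and 3 lower, with 31.3% of all features called. At 4 d, 18 were higher and 3 lower, with 53.7% of all features called, and between 4 d and 2 d 15 were higher and 7 lower, with 44.4% called (22.4% higher and 22.1% lower). The share of members higher at 4 d was 18 of 36, against 27.1% of all features, and at 2 d 12 of 36, against 15.8%, while 3 of 36 were lower at each time, against 26.6% and 15.5%. This excess of higher calls depends on the scaling. Under median scaling, which moved the median of all features as well, 0 members were higher and 16 lower at 2 d, and 0 were higher and 8 lower at 4 d. All 12 higher calls at 2 d were thereby lost, 10 with a turned sign, and all 18 at 4 d, 5 with a turned sign. Under scaling on probes detected on every array, 15 members were higher and 1 lower at 2 d and 23 were higher and 3 lower at 4 d. Of the calls, 1 of 15 at 2 d (Psma1), 2 of 21 at 4 d (Psme1 and Psme2) and 9 of 22 between 4 d and 2 d held in every alternative other than leaving out single arrays. Without the 3 arrays that stood apart the counts were 18, 23 and 23. The median difference from no T3 was 0.13 at 2 d and 0.22 at 4 d for core members and 0.03 and 0.13 for regulatory members, with 0.01 and 0 for all features. Under scaling on 1 value per array, these medians relative to all features were 0.05 and 0.21 for core and -0.05 and 0.13 for regulatory members, so the regulatory median at 2 d changed sign.

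In the core particle, 6 members were higher and 1 lower at 2 d, and 9 were higher and 0 lower at 4 d. The shares of all features were 15.8% higher and 15.5% lower at 2 d, and 27.1% and 26.6% at 4 d. The higher core calls were lost under median scaling, as given above. Psmb1, a beta subunit without a cutting site, ranged from 12.81 to 13.02 (median 12.89) without T3, 13.12 to 13.44 (median 13.25) at 2 d and 13.05 to 13.40 (median 13.23) at 4 d. Arrays of both T3 groups lay above all arrays without T3, with differences of 0.38 ± 0.06 (adjusted p = 5.9e-06) at 2 d and 0.33 ± 0.06 (adjusted p = 1.57e-05) at 4 d. Separate arrays were seen for 2 members at 2 d and 9 at 4 d, against 4.08% and 17.6% of all features. Psma6 was higher at both times, by 0.31 ± 0.06 and 0.24 ± 0.06 (adjusted p = 0.000182 and 0.00133). The lower member at 2 d was Psma1, an alpha subunit, at -0.55 ± 0.14 (adjusted p = 0.00143).

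The catalytic subunits followed different courses. Psmb7 ranged from 11.19 to 11.62 (median 11.50) without T3, 11.22 to 11.49 (median 11.38) at 2 d and 11.72 to 11.99 (median 11.85) at 4 d. All 4 d arrays lay above all arrays of both earlier groups, and the 4 d difference was 0.39 ± 0.06 from no T3 (adjusted p = 8.58e-07) and 0.49 ± 0.06 from 2 d (adjusted p = 7.4e-09). Psmb6 ranged from 11.08 to 11.74 (median 11.35) without T3, 11.07 to 12.03 (median 11.81) at 2 d and 11.06 to 11.41 (median 11.25) at 4 d. The 2 d level was 0.40 ± 0.09 higher than without T3 (adjusted p = 0.000663), and the 4 d level differed from it by -0.50 ± 0.09 (adjusted p = 1.28e-05). Its single low 2 d value, 11.07, was that of array 2, and without it the differences were 0.48 and -0.58. Among the earlier title numbers the 2 d difference of Psmb6 was 0.35 (adjusted p = 0.123). Psmb5 was not called at either time, at 0.10 ± 0.07 (adjusted p = 0.259) and 0.03 ± 0.07 (adjusted p = 0.768), and at 4 d it was 0.49 ± 0.07 higher than control (adjusted p = 1.08e-07).

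Psma7, an alpha subunit, ranged from 12.14 to 13.02 (median 12.75) without T3, 12.25 to 12.75 (median 12.43) at 2 d and 12.86 to 13.02 (median 12.94) at 4 d. All 4 d arrays lay above all 2 d arrays, a difference of 0.50 ± 0.10 (adjusted p = 6.46e-05). Against no T3 its call at 4 d was uncertain: the difference was 0.04 (adjusted p = 0.806) among the earlier and 0.50 among the later title numbers, and the call was lost without KRT-19-positive array 7, 8 or 9 (0.21, 0.24 and 0.22). Calls of Psmb2 at 4 d and Psma5 at 2 d were also lost on leaving out single arrays, 5 and 7 of them in turn, with weakest values of 0.11 (adjusted p = 0.0868) and 0.13 (adjusted p = 0.0821), in both cases without KRT-19-positive array 2.

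The ATPase ring split by time. Psmc2 ranged from 10.73 to 11.06 (median 10.94) without T3, 10.60 to 11.61 (median 10.79) at 2 d and 11.36 to 11.72 (median 11.39) at 4 d. Apart from 2 d array 2, at 11.61, all 2 d arrays lay below all 4 d arrays. The 4 d difference was 0.57 ± 0.09 from no T3 (adjusted p = 7.56e-07) and 0.63 ± 0.09 from 2 d (adjusted p = 1.18e-07), or 0.72 from 2 d without that array. Psmc5 ranged from 9.64 to 10.20 (median 9.87) without T3, 9.73 to 10.60 (median 10.04) at 2 d and 10.41 to 10.85 (median 10.60) at 4 d. Again 2 d array 2 held the highest value of its group, and the 4 d differences were 0.70 ± 0.09 (adjusted p = 1.04e-09) and 0.56 ± 0.09 (adjusted p = 3.8e-07).

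Psmc3 did the opposite. It ranged from 8.83 to 9.62 (median 9.16) without T3, 9.21 to 10.08 (median 9.84) at 2 d and 8.94 to 9.32 (median 9.08) at 4 d. The 2 d level was 0.56 ± 0.09 higher than without T3 (adjusted p = 5.19e-06), and the 4 d level differed from it by -0.66 ± 0.09 (adjusted p = 5.65e-08). Here 2 d array 2 gave the lowest value of its group, 9.21, and without it the values were 0.62 and -0.73. Psmc1 was 0.33 ± 0.06 higher at 2 d (adjusted p = 3.83e-05). Psmc6 was called lower at 2 d (-0.57), where it was above background on 7 of 10 arrays, and this call was lost without KRT-19-positive array 7 (-0.50, adjusted p = 0.0512) and among the earlier title numbers (-0.38, adjusted p = 0.382), with -0.76 among the later.

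**Figure D4:**
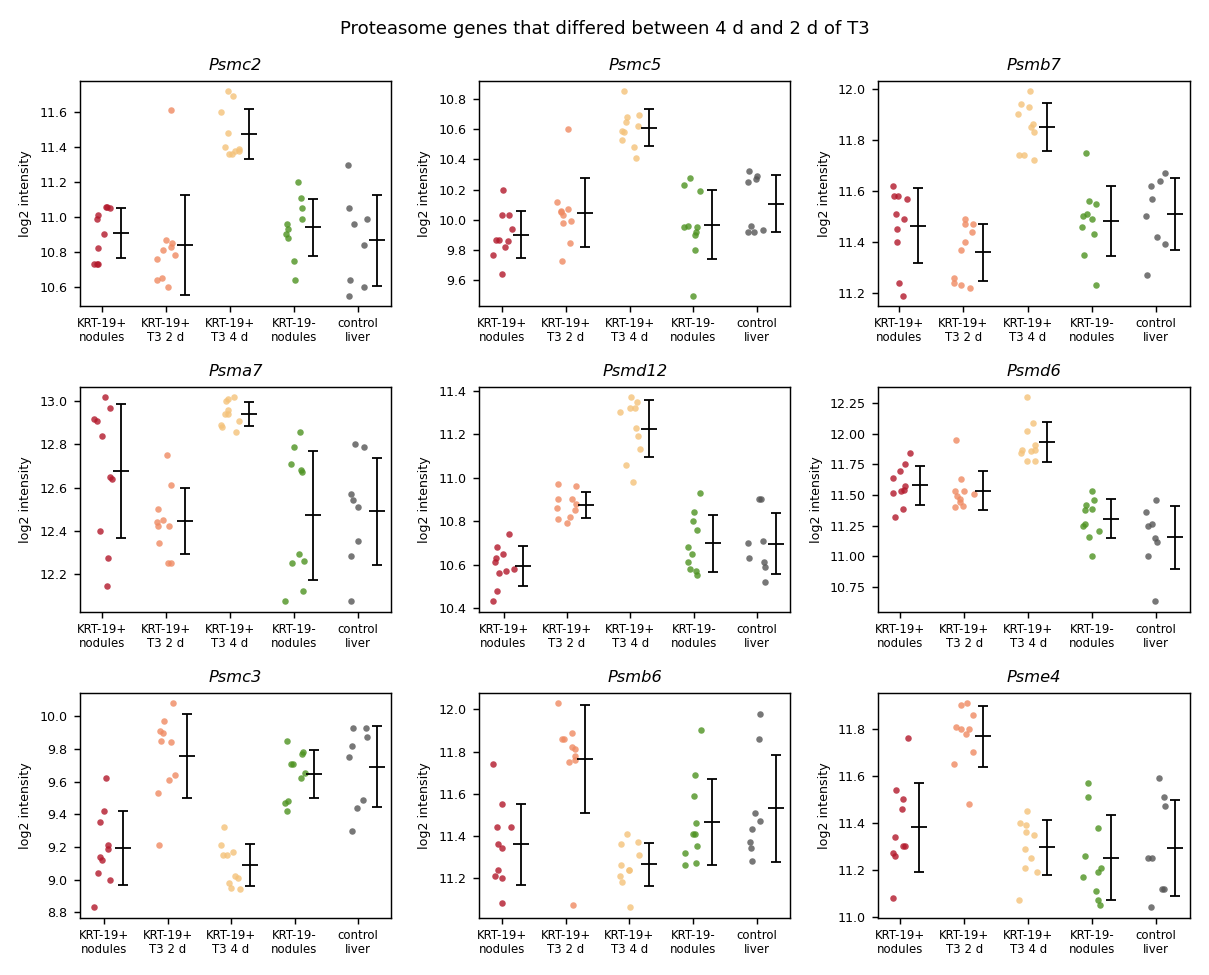
Log2 intensity per array of 9 members called between 4 d and 2 d of T3, in the 5 groups, with mean and SD as bars. Psmc2, Psmc5, Psmb7, Psma7, Psmd12 and Psmd6 lie highest at 4 d, Psmc3, Psmb6 and Psme4 lie lower at 4 d than at 2 d, and 1 array of the 2 d group (array 2) lies towards the 4 d arrays for several of them.

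In the lid, 2 of 7 measured members were higher at 2 d and 5 at 4 d, with 0 lower at either time. The shares of all features called higher were 15.8% at 2 d and 27.1% at 4 d, with 15.5% and 26.6% lower. The higher lid calls were lost under median scaling, as given above. Psmd12 ranged from 10.43 to 10.74 (median 10.60) without T3, 10.79 to 10.97 (median 10.87) at 2 d and 10.98 to 11.37 (median 11.27) at 4 d, so that the 3 groups were separate. The differences from no T3 were 0.28 ± 0.06 at 2 d (adjusted p = 0.000176) and 0.64 ± 0.06 at 4 d (adjusted p = 3.42e-13). Psmd3 ranged from 11.58 to 12.03 (median 11.76) without T3, 12.00 to 12.59 (median 12.47) at 2 d and 12.09 to 12.43 (median 12.29) at 4 d. Its arrays at 4 d were separate from those without T3, and the differences were 0.63 ± 0.09 (adjusted p = 1.38e-07) and 0.49 ± 0.09 (adjusted p = 4.71e-06). Psmd13 was called at 4 d alone, by 0.41 ± 0.08 (adjusted p = 3.02e-05), and its 4 d level was 0.25 ± 0.08 above that at 2 d (adjusted p = 0.0106). Psmd6 was 0.35 ± 0.08 higher at 4 d than without T3 (adjusted p = 0.000287). Psmd8, close to background, was not called at either time, at -0.16 ± 0.17 (adjusted p = 0.514) and -0.35 ± 0.17 (adjusted p = 0.0814).

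In the base, the scaffold subunit Psmd1 was called higher at 4 d at 0.23, and this was lost without KRT-19-positive array 7 (0.16, adjusted p = 0.0969). The other scaffold subunit, Psmd2, was not called against no T3 but was lower at 4 d than at 2 d, at -0.31 ± 0.10 (adjusted p = 0.00995). Psmd4 was 0.26 ± 0.08 higher at 4 d than at 2 d (adjusted p = 0.00589). Its lower call at 2 d (-0.21) was lost on leaving out any of 15 single arrays (8 without T3, 7 at 2 d), with a highest adjusted p = 0.0839 without KRT-19-positive array 2. Of the assembly factors, Psmd9 was higher than without T3 at 2 d (0.46 ± 0.12, adjusted p = 0.00276) and 4 d (0.63 ± 0.12, adjusted p = 1.91e-05), with 0.37 (adjusted p = 0.231) at 2 d among the earlier title numbers. Psmd5 was lower at 4 d, at -0.31 ± 0.11 (adjusted p = 0.0159).

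Both PA28 genes were lower after 4 d of T3. Psme1 ranged from 13.67 to 14.09 (median 13.83) without T3, 13.39 to 14.00 (median 13.66) at 2 d and 12.49 to 13.13 (median 12.66) at 4 d. Every 4 d array lay below every array of the other 2 groups. The 4 d difference was -1.07 ± 0.09 from no T3 (2.10-fold, adjusted p = 7.07e-14) and -0.94 ± 0.09 from 2 d (adjusted p = 1.39e-11), whereas the 2 d difference was -0.13 ± 0.09 (adjusted p = 0.301). Psme2 ranged from 10.31 to 10.74 (median 10.50) without T3, 10.21 to 10.53 (median 10.38) at 2 d and 9.50 to 9.96 (median 9.64) at 4 d. Its groups were separate in the same way, with 4 d differences of -0.82 ± 0.10 (adjusted p = 3e-10) and -0.69 ± 0.10 (adjusted p = 4.67e-08). Psme4 ranged from 11.08 to 11.76 (median 11.32) without T3, 11.48 to 11.91 (median 11.80) at 2 d and 11.07 to 11.45 (median 11.32) at 4 d. PA200 was thus 0.39 ± 0.08 higher at 2 d (adjusted p = 7.84e-05), and its 2 d and 4 d arrays were separate (-0.47 ± 0.08, adjusted p = 1.12e-06). In all, 6 members had separate arrays between 4 d and 2 d, as did 9.74% of all features.

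The inducible catalytic subunits were lower at 4 d together with PA28. Psmb9 ranged from 10.27 to 11.04 (median 10.61) without T3, 9.48 to 9.99 (median 9.77) at 2 d and 8.37 to 9.30 (median 8.67) at 4 d, so all 3 groups were separate. The differences from no T3 were -0.85 ± 0.17 (adjusted p = 7.72e-05) and -1.93 ± 0.17 (3.80-fold, adjusted p = 3.67e-14). Psmb8 was lower at 4 d by -0.60 ± 0.08 (adjusted p = 8.99e-09), and Psmb10 by -0.40 ± 0.11 (adjusted p = 0.00194). For Psmb10 the value was -0.16 (adjusted p = 0.421) among the earlier and -0.65 among the later title numbers. Its highest 4 d values, 12.15 and 12.29, were those of arrays 1 and 3, against 11.26 to 11.77 in the other 4 d arrays. These are the arrays with the highest Gstp1 at 4 d, and both have earlier title numbers. A link between the Gstp1 level and Psmb10 was not tested. Psmb8 at 2 d was called higher (0.23), with 0.10 (adjusted p = 0.65) among the earlier title numbers and a lost call without KRT-19-positive array 6 (0.21, adjusted p = 0.0514). Of the 11 measured antigen presentation genes, 0 were higher and 10 were lower at 4 d, with 27.1% and 26.6% of all features, among them the class II chaperone Cd74 (-1.93) and Tap2 (-1.36).

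The summed markers of macrophages, lymphocytes, stellate cells and bile duct cells were also lower at 4 d, while those of endothelial and red cells were higher. The summed linear intensity of 7 measured of 10 listed macrophage markers was 7501 to 16106 without T3, 6171 to 9603 at 2 d, 5003 to 6695 at 4 d and 8012 to 15042 in control liver. For 8 measured of 13 listed lymphocyte markers it was 392 to 684 without T3, 357 to 688 at 2 d, 299 to 430 at 4 d and 427 to 859 in control liver. At 2 d against no T3, 5 macrophage markers were lower and 1 higher, and 0 lymphocyte markers were called. Of all features, 15.5% were lower and 15.8% higher at 2 d. At 4 d against no T3, 4 macrophage markers were lower and 1 higher, and 5 lymphocyte markers were lower and 0 higher. Of all features, 26.6% were lower and 27.1% higher at 4 d. The sum of 6 measured of 9 listed stellate and fibroblast markers was 5779 to 11943 without T3, 6023 to 10028 at 2 d, 2963 to 8023 at 4 d and 1668 to 2385 in control liver, with 4 markers lower and 1 higher at 4 d. For 5 measured of 8 listed cholangiocyte markers, Krt19 among them, it was 3933 to 10158 without T3, 1368 to 5649 at 2 d, 517 to 1010 at 4 d and 300 to 473 in control liver, with 3 lower and 0 higher. For 2 measured of 6 listed endothelial markers the sum was 468 to 811 without T3 and 940 to 1177 at 4 d, with 1 higher and 0 lower. For 3 measured of 4 listed red cell markers it was 5243 to 13926 without T3 and 17745 to 25856 at 4 d. Of these red cell markers 2 were higher and 1 lower. Among macrophage markers C1qa was lower at 4 d than without T3 (-1.44), whereas Vsig4 was higher (0.57). The part of these cells in the levels of PA28 and of the inducible subunits was not tested.

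**Figure D5:**
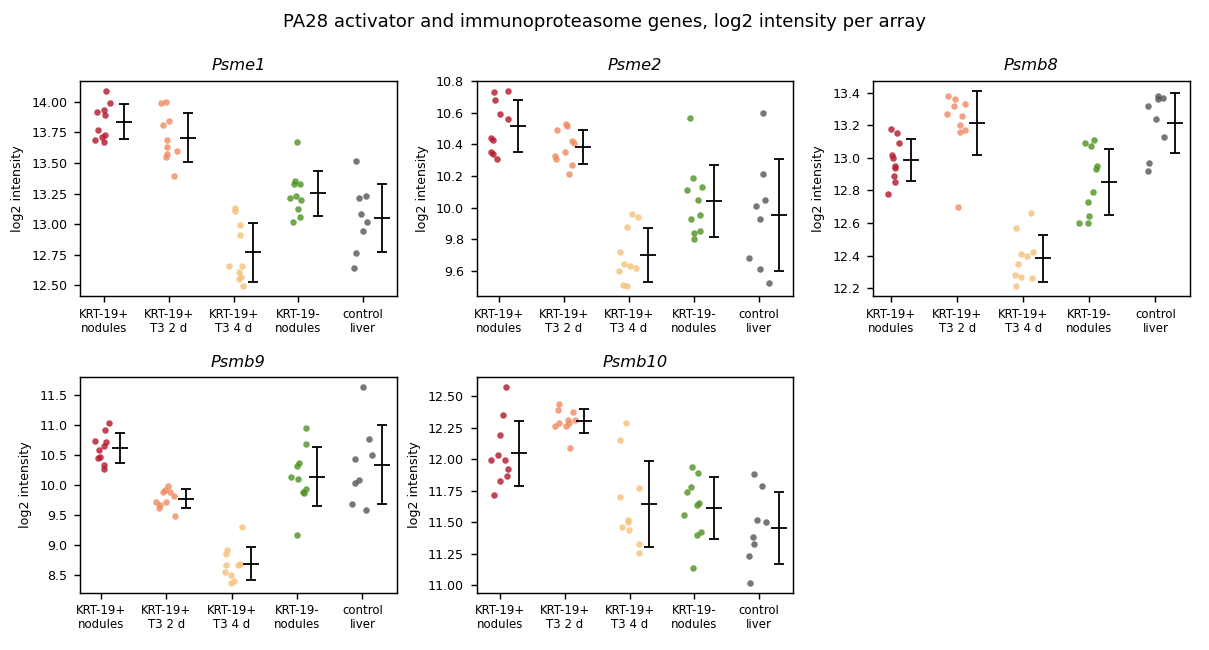
Log2 intensity per array of the PA28 genes Psme1 and Psme2 and the inducible catalytic subunits Psmb8, Psmb9 and Psmb10 in the 5 groups, with mean and SD as bars. For Psme1, Psme2, Psmb8 and Psmb9 all 4 d T3 arrays lie below all arrays of KRT-19-positive nodules without T3, while for Psmb10 the groups overlap.

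Finally, KRT-19-positive nodules after 4 d of T3 were set against control liver. Of the 36 members, 17 were higher and 7 lower, with 42.0% of all features called, 21.7% higher and 20.3% lower. Under median scaling 7 were higher and 3 lower, and under scaling on probes detected on every array 12 were higher and 8 lower. Without the 3 arrays that stood apart the count was 25. Core members were higher in 9 cases and lower in 1, Psmb6 (median 0.30, all features 0), and regulatory members were higher in 8 and lower in 6 (median 0.12). Separate arrays were seen for 10 members, 9 of them higher, against 11.6% of all features. Psmd6 ranged from 11.78 to 12.30 (median 11.87) at 4 d of T3, against 10.63 to 11.46 (median 11.20) in control liver, a difference of 0.78 ± 0.09 (adjusted p = 2.09e-10) with no overlap. Psma2 (0.64 ± 0.11, adjusted p = 5.01e-06) and Psmc2 (0.61 ± 0.10, adjusted p = 1.04e-06) followed.

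Members lower than control after 4 d included Psmc3 (-0.60 ± 0.10, adjusted p = 1.64e-06), Psmc6 (-0.65 ± 0.21, adjusted p = 0.00993) and Psmd9. Psmd9 ranged from 9.34 to 9.94 (median 9.77) at 4 d, against 10.06 to 10.68 (median 10.24) in control liver, and the groups were separate (-0.63 ± 0.13, adjusted p = 6.73e-05). Psmc6 at 4 d differed from control by -0.19 (adjusted p = 0.649) among the earlier and -1.11 among the later title numbers. Psme1 was called at -0.28, with -0.04 (adjusted p = 0.854) among the earlier and -0.53 among the later title numbers and -0.22 (adjusted p = 0.0767) without control array 8. Psme2 was called at -0.25, with -0.03 (adjusted p = 0.903) and -0.48 in the same sets, and this was lost on leaving out any of 10 single arrays, with a weakest value of -0.16 (adjusted p = 0.181) without control array 8. Calls of Psmd8 (-0.46), Psmd7 (0.18) and Psmb6 (-0.27) were also lost on leaving out single arrays, with weakest values of -0.32 (without control array 6), 0.16 (without control array 6) and -0.20 (without control array 3). For Psmd8 the value was -0.31 (adjusted p = 0.375) among the earlier and -0.61 among the later title numbers, and for Psmb6 -0.42 and -0.12 (adjusted p = 0.425). The inducible Psmb9 was lower than control at -1.65 ± 0.18 (adjusted p = 5.95e-11) and Psmb8 at -0.83 ± 0.09 (adjusted p = 1.88e-11), while Psmb10 was not called (0.19 ± 0.12, adjusted p = 0.209).

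Other genes of the pathway were taken from lists. Of 7 core assembly and import genes 4 were measured. The assembly factor Pomp ranged from 8.52 to 9.30 (median 8.98) in KRT-19-positive nodules without T3, 9.24 to 9.72 (median 9.40) at 2 d, 9.26 to 9.59 (median 9.41) at 4 d and 8.69 to 9.17 (median 8.88) in control liver. It was 0.49 ± 0.09 higher at 2 d (adjusted p = 4.22e-05) and 0.48 ± 0.09 higher at 4 d (adjusted p = 1.45e-05) than without T3. Psmg2, which helps to assemble the alpha ring, was higher in both kinds of nodule without T3 than in control liver, by 0.88 in KRT-19-positive and 0.71 in KRT-19-negative nodules, and its arrays were separate from control in both. It did not stand for the list: in each of these comparisons 1 of the 4 measured genes was higher and 2 were lower. The shares of all features were 24.8% higher and 23.9% lower for KRT-19-positive nodules, and 11.2% and 10.7% for KRT-19-negative nodules.

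Of 11 listed proteasome-bound receptors and enzymes 7 were measured, of which 4 were higher and 1 lower at 4 d than without T3, with 27.1% and 26.6% of all features. The ubiquitin receptor Adrm1 ranged from 5.23 to 7.99 (median 7.54) without T3, 5.79 to 8.79 (median 6.22) at 2 d and 8.53 to 9.12 (median 8.89) at 4 d. All 4 d arrays lay above all arrays without T3 (1.55 ± 0.32, adjusted p = 5.51e-05), while the 2 d and 4 d ranges overlapped. The shuttle factor Ubqln1 (0.75) and the deubiquitinase Uchl5 (0.83) were also higher at 4 d, and the deubiquitinase Usp14 was lower (-0.25). Of 10 listed VCP segregase genes 8 were measured, with 2 higher and 1 lower at 4 d, no larger a share than the 27.1% and 26.6% of all features, and of 6 genes for ubiquitin and its activation 1 was measured and not called in any of the 7 comparisons.

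Of 9 listed regulators of the pathway 6 were measured, and Nfe2l1 was not among them. At 4 d against no T3, 1 was higher and 4 were lower, with 27.1% and 26.6% of all features. Nfe2l2 ranged from 11.06 to 12.01 (median 11.22) in KRT-19-positive nodules without T3 and 10.22 to 11.18 (median 10.96) in control liver. After T3 it ranged from 10.26 to 11.22 (median 10.81) at 2 d and 9.95 to 11.00 (median 10.25) at 4 d. The 4 d difference from no T3 was -0.98 ± 0.13 (adjusted p = 1.44e-08) with no overlap. Of 16 measured NRF2 targets of 20 listed, KRT-19-positive nodules had 14 higher and 0 lower against control, with 24.8% and 23.9% of all features, and 0 were higher and 14 lower at 4 d of T3 than without T3, with 27.1% and 26.6%. Against the same groups, proteasome members gave 9 higher and 5 lower, and 18 higher and 3 lower, after quantile normalisation. Under median scaling the members gave 10 higher and 1 lower against control, and 0 higher and 8 lower at 4 d. Under scaling on probes detected on every array they gave 3 higher and 19 lower, and 23 higher and 3 lower. Of the 8 members with TGACNNNGC in the promoter, Psmb5 was called higher in the KRT-19-positive group against control, Psmd3 and Psmd9 were called lower and the other 5 were not called. At 4 d of T3 against no T3, Psmb2, Psmd1, Psmd3 and Psmd9 were called higher and the rest were not called. Those higher calls at 4 d were lost under median scaling, as given above.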

How the data were processed

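Male Fischer rat liver was measured on 48 Illumina arrays in the 5 groups given by the sample titles. The authors exported the data with BeadStudio 3.0.19.0, per the submitters' processing notes. Genome build: not given in the sources used here. The authors deposited a non-normalised table of bead intensity and a detection p-value per probe and array, per the file headers, and a separate table of processed intensity values, whose log2 served as an alternative. Per-probe read depth has no counterpart on arrays, and the number of arrays limits the precision.

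Background correction from the detection p-values, quantile normalisation with an offset of 16 and log2 transformation used the neqc function of limma (version 3.58.1) under R version 4.3.3, and files were read with the package data.table, version 1.17.8. Probes above background (detection p under 0.05) on at least 8 arrays were kept, with the brightest raw probe per gene, giving 8223 named genes and 3335 unnamed probes. One coefficient per group was fitted by lmFit with eBayes (trend), and p-values were adjusted by Benjamini-Hochberg over all 11558 features. The procedure was tested on simulated data. Members and lists were chosen with earlier results of these data known.

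Named were the catalytic subunits, receptor and activators, up to 3 called members with the largest rise and fall per comparison, members called against the majority of their class, members not tested, and up to 3 members per pathway list; other members were named after their values were seen. The brightest and dimmest members were not singled out, because levels of different probes cannot be compared. Alternatives were another background offset, scaling in place of quantile normalisation, other filters, array weights, a covariate for detected probes, sets of title numbers, the title number as a block, and leaving out single arrays or the 3 that stood apart.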

Additional observations from a re-analysis of the deposited data

Results flagged for a closer look

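In 45 groups of member values, 3 held an array far from the others of its group, and chance gives about 1 in 20. Psme1 was 13.67 in KRT-19-negative array 9, against 13.02 to 13.35 in the other arrays of that group, and this array also stood nearer to the KRT-19-positive group over all features. Psme2 was 10.57 in KRT-19-negative array 2, against 9.80 to 10.19 in the others. Psmb6 was 11.07 in 2 d T3 array 2, against 11.75 to 12.03 in the others, and this array also stood apart from its group over all features.

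The difference from no T3 at 4 d departed from that at 2 d for 22 members, by the limma test of 4 d against 2 d. The log2 level at 4 d was higher than at 2 d for Psma1 (0.37), Psma2 (0.25), Psma3 (0.52), Psma4 (0.28), Psma7 (0.50), Psmb7 (0.49), Psmc2 (0.63), Psmc5 (0.56), Psmc6 (0.56), Psmd1 (0.26), Psmd4 (0.26), Psmd6 (0.40), Psmd11 (0.17), Psmd12 (0.35) and Psmd13 (0.25). It was lower for Psmb6 (-0.50), Psmc1 (-0.19), Psmc3 (-0.66), Psmd2 (-0.31), Psme1 (-0.94), Psme2 (-0.69) and Psme4 (-0.47). The calls of Psma1, Psma2 and Psmd11 were lost on leaving out single arrays: for Psma1 2 d array 7 (0.33) or 4 d array 2 (0.31), for Psma2 any of 15 arrays (weakest 0.22 without 2 d array 5) and for Psmd11 any of 7 (weakest 0.15 without 2 d array 6).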

How the results depend on the processing

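With the replicate block (the title number as a block), 130 of 131 differences of members (those called, and all of the catalytic subunits, Psmd4 and the activators) kept their direction and side of the threshold, and Psmd11 between 4 d and 2 d lost its call; KRT-19-negative Psmd9 was -0.61 against control. Over all groups the numbers showed no clear pairing, since 7 of 48 arrays correlated best with an array of the same number. With group means removed, arrays of the same number correlated more than others between KRT-19-negative nodules and control (median 0.20 against -0.01). The same held between 2 d and 4 d of T3 (0.12 against -0.03). In the other pairs of groups they correlated less, down to -0.17 against 0.02. Whether the numbers pair samples in some groups cannot be told from this, and the block is given as a check. An offset of 50, the mean of all probes and the title sets as a block kept all 131, the deposited values 130, array weights 127 and a covariate for detected probes 116, with 14 calls lost (among them Psmd3 against control, Psmd5 and Psmd6 against KRT-19-negative nodules, Psmc6 against both, and Psmb6 and Psmd9 at 2 d, 0.21 and 0.29). Scaling changed the results most. The cause of the changes below was not tested.

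Under median scaling the members called were 0 in KRT-19-negative nodules against control (Psmd9 at -0.55, adjusted p = 0.0586), 8 (0 higher, 8 lower) at 4 d against no T3, 12 at 4 d against 2 d and 10 at 4 d against control, and at 2 d 16 (0 higher, 16 lower) in place of 15 (12 higher, 3 lower). The medians of core and regulatory members became 0.32 and 0.33 in KRT-19-positive nodules against control, 0.32 and 0.31 against KRT-19-negative nodules, -0.32 and -0.42 at 2 d and -0.03 and -0.11 at 4 d against no T3, and 0.26 and 0.31 at 4 d against 2 d. Signs turned for Psmc3 (0.04) and Psmd4 (0.10) in KRT-19-positive nodules against control, and for Psmc3 (0.01) and Psmg1 (0.03) against KRT-19-negative nodules. At 2 d they turned for Psma5 (-0.31), Psma6 (-0.14), Psmb1 (-0.09), Psmb2 (-0.18), Psmb4 (-0.27), Psmb6 (-0.07), Psmc1 (-0.11), Psmd12 (-0.22), Psmd9 (-0.09), Psme4 (-0.08), Psmb8 (-0.23), Pomp (-0.07) and Psmg1 (-0.08). At 4 d against no T3 they turned for Psma5 (-0.04), Psmb2 (-0.07), Psmb4 (-0.02), Psmd1 (-0.09), Psmd7 (-0.01) and Psmg1 (-0.01), and at 4 d against 2 d for Psmc1 (0.09).

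Scaling on probes detected on every array, chosen after seeing the data, gave 22 members called in KRT-19-positive nodules against control and 16 against KRT-19-negative nodules. Core and regulatory medians were -0.13 and -0.05 in KRT-19-negative nodules against control, -0.25 and -0.24 in KRT-19-positive nodules against control, -0.14 and -0.14 against KRT-19-negative nodules, 0.23 and 0.13 at 2 d, 0.39 and 0.31 at 4 d, 0.13 and 0.19 at 4 d against 2 d, and 0.15 and -0.03 at 4 d against control. Signs turned for Psma6 (-0.09), Psmc1 (-0.24), Psmc4 (-0.02) and Psme4 (-0.19) against control and for Psmc4 (-0.02) against KRT-19-negative nodules.

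Among the earlier title numbers the counts were 4 in KRT-19-negative nodules against control, 8 at 2 d, 12 at 4 d and 12 at 4 d against 2 d, with fewer samples. Medians moved to 0.16 (core, KRT-19-positive against control), 0.03 (regulatory, against KRT-19-negative), 0.10 (core, 2 d), and 0.40 and -0.01 (core and regulatory, 4 d against control), and Psmc1 turned to -0.01 against control. Among the later ones the regulatory median against control was -0.10 and Psmd3 turned to 0.03. Requiring detection on every array gave 2 members called in KRT-19-negative nodules against control and medians of 0.04 (regulatory, KRT-19-positive against control) and 0.15 and 0.12 (core and regulatory, 2 d). Array weights gave 14 members against KRT-19-negative nodules, and leaving out the arrays that stood apart, also chosen after seeing the data, gave 2 in KRT-19-negative nodules against control.

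Leaving out each array in turn gave 1 to 2, 13 to 15, 8 to 11, 13 to 18, 20 to 23, 20 to 23 and 21 to 26 members called, in the order of comparisons in the heat map, and a regulatory median of -0.06 to 0.02 in KRT-19-positive nodules against control. Psmc6 and Psmd8 lie near background, which limits what their differences can show.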
